A study of Rattus norvegicus with 8 samples.

Results

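Endocytosis carries receptors, adhesion molecules and membrane into the cell. In the clathrin route, adaptors such as Dab2 gather cargo, a lattice of clathrin heavy (Cltc) and light (Clta) chains coats the pit, the curved BAR-domain protein Bin1 (amphiphysin 2) shapes its neck and the GTPase dynamin (Dnm1, Dnm2) cuts it off. Caveolin 1 (Cav1) coats caveolae, small flask-shaped pits that bud without clathrin. In migrating cells these routes are known for taking up integrins and growth factor receptors.

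The transcripts of these 7 genes were followed as the 10 probe sets that the platform's gene table pairs with Dab2, Bin1, Clta, Cltc, Dnm1, Dnm2 or Cav1, out of 8799 probe sets on the array, for 7 of 4737 genes with a name of their own. Each of the 7 genes had at least 1 probe set, and Bin1, Clta and Dnm2 had 2 each. The cells were C6, an established rat glioma line with glial features, and the labels name migration as the subject. There were 4 groups of 2 arrays each: fast cells and slow cells of a set called C6SPGFP, and fast cells and slow cells of C6. The labels do not say what C6SPGFP stands for, how fast and slow cells were obtained, or whether the replicates came from separate cultures, so each p-value reflects array-to-array spread, which may be technical.

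Signals are in the linear units of the array after quantile normalisation, which gives every array the same distribution of values. It was needed because the deposited signals of C6SPGFP fast replicate 1 had a trimmed mean of 499.9, against 99.4 to 104.8 on the other arrays. Log2 changes are of signal plus 8, with standard errors (SE) and adjusted p-values from a limma fit to all 8 arrays, adjusted over the 6684 probe sets tested, and a change was called at an adjusted p under 0.05. All 10 probe sets passed the filter on low signals, a mean of at least 8. No detection calls were used, so it is unknown whether the dimmest signals exceed background, and the number of arrays limits the precision. Vim, the vimentin of glioma cells, had mean signals of 3716, 3179, 2658 and 2881 in C6SPGFP fast, C6SPGFP slow, C6 fast and C6 slow cells. S100b, a calcium-binding protein of glia, had 1261, 1226, 65.9 and 408 on its brighter probe set, so the C6 fast arrays were low in that glial marker.

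Of the 7 genes, Dab2, Bin1 and Cav1 had a called change, each with a pattern of its own. Dab2 was low in both C6SPGFP groups and high in both C6 groups. Bin1 was lowest in C6 fast cells, far below the other groups on 1 of its probe sets and as the end of a graded order on the other. Cav1 was higher in both C6SPGFP groups than in both C6 groups. The clathrin chains and the dynamins had no called change in any of the 5 comparisons. Between fast and slow cells of C6, 2 of the 10 probe sets were called, both lower, where 6.66% of all probe sets were called, 2.69% higher and 3.96% lower. In C6SPGFP no member was called between fast and slow cells by limma, where 1.39% of all were, 1.06% higher and 0.329% lower, and 1 member had an unadjusted p under 0.05. On the difference between these changes 1 member was called, higher in C6SPGFP, where 3.82% of all were, 2.71% higher and 1.11% lower. Between C6SPGFP and C6 in slow cells, 1 member was higher and 1 lower, where 6.34% of all were called, 3.29% higher and 3.05% lower. In fast cells 3 were higher and 1 lower, where 15.6% of all were called, 8.29% higher and 7.3% lower. With 10 probe sets these shares rest on few calls.

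**Figure D1:**
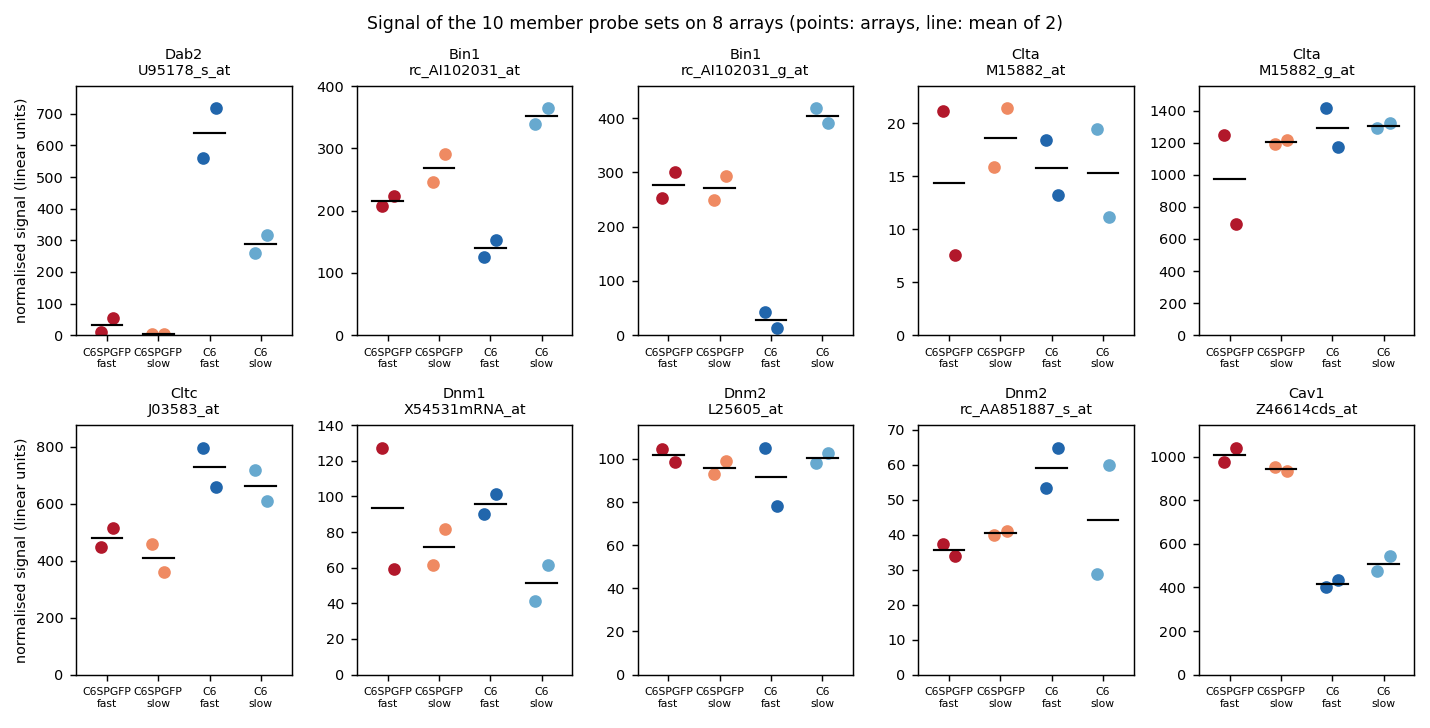
Normalised signal in linear units (vertical axes, from 0) of the 10 probe sets in the 4 groups; each point is an array and each line the mean of the 2 arrays. Dab2 lies between 4.68 and 54.4 in the C6SPGFP groups and between 260 and 717 in the C6 groups, Bin1 is lowest in C6 fast cells on both probe sets, and Cav1 is at least 936 on all C6SPGFP arrays and below 546 on all C6 arrays.

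The median log2 change of the 10 member probe sets was 0.01 between fast and slow C6 cells (0.01 over all), 0.05 between fast and slow C6SPGFP cells (-0.02 over all), -0.09 between the sets in slow cells (0.01 over all) and -0.14 in fast cells (-0.03 over all). On the difference of the changes it was 0.16 (-0.04 over all). The median size of the change, with its sign dropped, was 0.35, 0.25, 0.41, 0.60 and 0.37 for the members and 0.25, 0.20, 0.27, 0.32 and 0.33 over all, in the same order. Because the members were chosen with earlier results of these data known, their larger sizes may come from that choice, which was not tested. Members lay on both sides of 0 in every comparison.

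The promoter windows of these 3 genes are printed because theirs are the transcripts that changed. They are RefSeq sequences of the rat assembly GRCr8, 300 bases each around the annotated start, 5′ to 3′, used for sequence only, since the array files carry no coordinates. Capitals mark matches on either strand to a box spelled TATAAA, to the NF-Y motif spelled CCAAT or to the Sp1 motif spelled GGGCGG. The E-box spelled CACGTG was searched too, as was the AP-1 motif spelled TGACTCA, and neither had a match in these windows.
Dab2 promoter, chr2:57272050-57272349, plus strand: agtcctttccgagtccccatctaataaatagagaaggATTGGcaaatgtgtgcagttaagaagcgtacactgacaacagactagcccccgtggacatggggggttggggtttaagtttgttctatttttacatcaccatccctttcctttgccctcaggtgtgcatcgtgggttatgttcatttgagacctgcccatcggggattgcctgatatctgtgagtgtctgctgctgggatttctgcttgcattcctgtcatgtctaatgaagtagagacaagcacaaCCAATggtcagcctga
Bin1 promoter, chr18:24283701-24284000, plus strand: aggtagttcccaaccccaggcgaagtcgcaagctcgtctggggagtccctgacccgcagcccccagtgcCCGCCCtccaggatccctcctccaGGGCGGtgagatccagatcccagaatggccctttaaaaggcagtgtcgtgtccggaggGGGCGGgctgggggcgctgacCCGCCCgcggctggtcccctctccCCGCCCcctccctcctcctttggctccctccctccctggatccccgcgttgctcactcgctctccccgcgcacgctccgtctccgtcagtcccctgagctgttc
Cav1 promoter, chr4:46606288-46606587, plus strand: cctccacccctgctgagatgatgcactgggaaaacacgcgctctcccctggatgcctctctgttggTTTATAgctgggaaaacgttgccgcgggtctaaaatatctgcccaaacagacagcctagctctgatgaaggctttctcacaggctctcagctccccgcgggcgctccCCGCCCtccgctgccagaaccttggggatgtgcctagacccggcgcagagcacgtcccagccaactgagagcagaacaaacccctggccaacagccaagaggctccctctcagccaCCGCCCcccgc
The Dab2 window held 2 CCAAT matches, a motif in 37.5% of the 33469 windows of 300 bases. The Bin1 window held 5 GGGCGG matches, a motif in 33.1% of windows. The Cav1 window held 1 TATAAA match, in 14.2% of windows, and 2 of GGGCGG. A second window listed for Cav1, at another start, held none of the 5 motifs. CACGTG was in 6.42% of windows and TGACTCA in 4.63%. A match is a description of these letters, and the arrays do not measure binding.

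Dab2 encodes the adaptor disabled 2, which links receptors of the low-density lipoprotein receptor family and some integrins to clathrin. Its probe set, U95178_s_at, had signals of 10.3 and 54.4 in C6SPGFP fast cells and 4.68 and 5.26 in C6SPGFP slow cells, against 560 and 717 in C6 fast cells and 260 and 318 in C6 slow cells. All 4 C6SPGFP arrays lay below all 4 C6 arrays, and the groups did not overlap anywhere in the order C6 fast, C6 slow, C6SPGFP fast, C6SPGFP slow. The means were 32.4 ± 31.2 (SD, n = 2) in C6SPGFP fast and 639 ± 111 in C6 fast cells, a log2 change of -4.25 ± 0.47 (SE, limma adjusted p = 0.000653), 19.0-fold lower. In slow cells they were 4.97 ± 0.411 and 289 ± 41.0, a log2 change of -4.51 ± 0.47 (limma adjusted p = 0.00169), 22.8-fold lower. By size this was the change of rank 2 among the 6684 probe sets between the slow groups, and of rank 18 between the fast groups. These folds are of signal plus 8, and whether the C6SPGFP slow signals exceed background is unknown.

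Dab2 was also higher in fast than in slow cells on every array of both sets, without a call in either. In C6 the log2 change was 1.12 ± 0.47 (unadjusted p = 0.0444, limma adjusted p = 0.240), and in C6SPGFP it was 1.38 ± 0.47 (unadjusted p = 0.0184, limma adjusted p = 0.326). The 2 changes differed by 0.26 ± 0.67 (limma adjusted p = 0.891; 95% interval -1.27 to 1.80). In C6SPGFP fast cells the arrays were far apart, and without replicate 1 the change there was 1.94 (limma adjusted p = 0.0241). In C6 the change passed when C6SPGFP fast replicate 1 (1.14, limma adjusted p = 0.0203) or replicate 2 (limma adjusted p = 0.0298) was left out. It also passed when only the C6 arrays were fitted (limma adjusted p = 0.0478).

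Dab2 is also made by macrophages, so their markers were read beside it. Of 10 microglial and macrophage markers 8 had a probe set, 18 probe sets in all, and their summed signal was 187 to 199 in C6SPGFP fast, 199 to 202 in C6SPGFP slow, 203 to 215 in C6 fast and 178 to 218 in C6 slow cells. None of the 5 of these probe sets above the filter was called in any comparison. Cd74 and Itgam had mean signals under 6 in every group, and of 3 probe sets for Ptprc, 2 had means under 2. The other Ptprc probe set had means of 36.8 to 47.3 over the groups, and the brightest of C1qc had 77.8 to 93.4. Those of Aif1 and Csf1r above the filter had means from 5.68 to 19.1. The summed signal of C6SPGFP fast cells lay just below that of C6 fast cells, and the slow groups overlapped. The part of these cells in the Dab2 result was not tested. In bulk RNA, fewer cells of a kind and less RNA per cell cannot be told apart.

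Bin1 encodes amphiphysin 2, a BAR-domain protein that bends membranes and binds dynamin, and is also known as a partner of the transcription factor Myc. On rc_AI102031_g_at the signals were 253 and 302 in C6SPGFP fast cells, 249 and 294 in C6SPGFP slow cells, 43.0 and 13.6 in C6 fast cells and 418 and 391 in C6 slow cells. Both C6 fast arrays lay far below the other 6, while C6SPGFP fast and slow arrays overlapped. On the other probe set, rc_AI102031_at, the signals were 208 and 224, 246 and 290.5, 126 and 153, and 338 and 364 in the same 4 groups. There too the C6 fast arrays were the lowest and the C6 slow arrays the highest, with no overlap between neighbouring groups.

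Between fast and slow C6 cells both Bin1 probe sets fell, by different amounts. The means of rc_AI102031_g_at were 28.3 ± 20.8 in fast and 405 ± 19.0 in slow cells (SD, n = 2), a log2 change of -3.63 ± 0.35 (limma adjusted p = 0.000416), 12.4-fold lower. Those of rc_AI102031_at were 140 ± 19.5 and 351 ± 18.2, a log2 change of -1.29 ± 0.17 (limma adjusted p = 0.00258), 2.44-fold lower. The platform's table names both from the same sequence record, and which transcript forms each detects was not looked up here. In C6SPGFP the changes were 0.03 ± 0.35 (limma adjusted p = 0.991; 95% interval -0.76 to 0.83) and -0.30 ± 0.17 (limma adjusted p = 0.634; 95% interval -0.70 to 0.10).

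The test of the difference between the sets was passed on 1 of the Bin1 probe sets. The change on rc_AI102031_g_at was 3.67 ± 0.49 higher in C6SPGFP than in C6 (limma adjusted p = 0.00488), where 3.82% of all probe sets were called on this difference. On rc_AI102031_at the difference was 0.99 ± 0.25 (unadjusted p = 0.0034, limma adjusted p = 0.0738). Between the fast cells of the sets, rc_AI102031_g_at was 8.56-fold higher in C6SPGFP than in C6 (log2 change 3.10 ± 0.35, limma adjusted p = 0.000664). There rc_AI102031_at was 1.52-fold higher (0.61 ± 0.17, limma adjusted p = 0.0489), a call that ended without any single array, with adjusted p-values from 0.0556 to 0.221. Between the slow cells the changes were -0.57 ± 0.35 (limma adjusted p = 0.405) and -0.38 ± 0.17 (limma adjusted p = 0.255). The comparisons within C6 and between the fast cells share the C6 fast arrays, so the values from both rest on the same low signals.

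Some glial markers were also low in C6 fast cells. Of 5 markers of C6 and glial identity, 4 were measured on 6 probe sets (Vim, Nes, S100b and Cnp), with a summed signal of 6391 to 6486 in C6SPGFP fast, 6629 to 6734 in C6SPGFP slow, 2953 to 3168 in C6 fast and 4561 to 4859 in C6 slow cells. Of the 6, 4 fell and none rose in fast against slow C6 cells, those of Cnp, Nes and the brighter one of S100b, while Vim was not called there (-0.11, limma adjusted p = 0.611). On the difference of the changes 4 of the 6 were higher and none lower, as Bin1 was, where 3.82% of all probe sets were called. Between the fast cells of the sets 5 were higher and none lower, again as Bin1, where 15.6% of all were called. In the remaining comparisons some of the markers and Bin1 differed. Cnp fell in fast C6SPGFP cells too (-0.93, limma adjusted p = 0.0453), and Cnp and S100b were higher in C6SPGFP than in C6 slow cells (1.46 and 1.57, limma adjusted p = 0.00285 and 0.00132), where Bin1 had changes below 0. Their part in the Bin1 result was not tested.

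Cav1 encodes caveolin 1, the main coat protein of caveolae. Its probe set, Z46614cds_at, had signals of 976 and 1042 in C6SPGFP fast cells and 954 and 936 in C6SPGFP slow cells, against 402 and 434 in C6 fast cells and 474 and 546 in C6 slow cells. The 4 groups did not overlap, in the order C6SPGFP fast, C6SPGFP slow, C6 slow, C6 fast, and the step between the sets was the widest. In fast cells the means were 1009 ± 46.5 in C6SPGFP and 418 ± 22.7 in C6 (SD, n = 2), a log2 change of 1.26 ± 0.13 (limma adjusted p = 0.000473), 2.39-fold higher. In slow cells they were 945 ± 12.8 and 509.6 ± 51.1, a log2 change of 0.88 ± 0.13 (limma adjusted p = 0.00669), 1.85-fold higher. The call in slow cells ended without C6SPGFP slow replicate 1 (0.87, limma adjusted p = 0.0599) or replicate 2 (0.90, limma adjusted p = 0.0627).

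Fast and slow cells did not differ beyond the threshold in Cav1. The log2 change was -0.28 ± 0.13 in C6 (limma adjusted p = 0.296; 95% interval -0.58 to 0.02) and 0.09 ± 0.13 in C6SPGFP (limma adjusted p = 0.877; 95% interval -0.21 to 0.39). Their difference was 0.37 ± 0.19 (limma adjusted p = 0.398).

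Markers of endothelium, which is rich in caveolae, and of fibroblasts and mural cells were read beside Cav1. Of 8 endothelial markers 5 had a probe set, 6 probe sets in all, with a summed signal of 90.1 to 144 in C6SPGFP fast, 125 to 146 in C6SPGFP slow, 136 in C6 fast and 120 to 153 in C6 slow cells, and none of the 4 above the filter was called. Kdr and the first of 2 Vwf probe sets had mean signals under 8 in every group. Others were brighter, with means over the groups of 66.9 to 81.2 for Flt1, 19.96 to 24.1 for Pecam1 and 13.55 to 17.7 for Icam2. Of 7 fibroblast and mural markers 6 were measured on 15 probe sets, with summed signals of 2128 to 2150, 2124 to 2188, 1036 to 1205 and 1214 to 1572 in the same order of groups. Much of the step between the sets in these sums came from the brightest probe set, Pdgfra rc_AI232379_at, with means of 925, 1150, 356 and 460. Pdgfrb, with means of 47.1, 36.8, 38.6 and 56.6, had no such step, so the sums do not stand for every marker. Of the 12 above the filter, 5 were higher and none lower in C6SPGFP than in C6 fast cells (41.7%, against 15.6% of all probe sets). In slow cells, where Cav1 was also called, 1 was higher and none lower (8.33%, against 6.34% of all). The median log2 change of the 12 was 0.68 in fast cells and -0.08 in slow cells. The part of these markers in the Cav1 result was not tested. Of 10 neuronal markers, read for Dnm1, 8 were measured on 17 probe sets, and their sums were 378 to 453, 506 to 530, 304 to 308 and 299 to 329. Between the sets, 1 of the 10 above the filter was higher and none lower, in slow and in fast cells (10%, against 6.34% and 15.6% of all). Gad1 had means of 118, 112, 2.55 and 24.7, while Syp had 25.1, 26.0, 23.4 and 36.4. The part of these markers in the Dnm1 values was not tested.

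**Figure D2:**
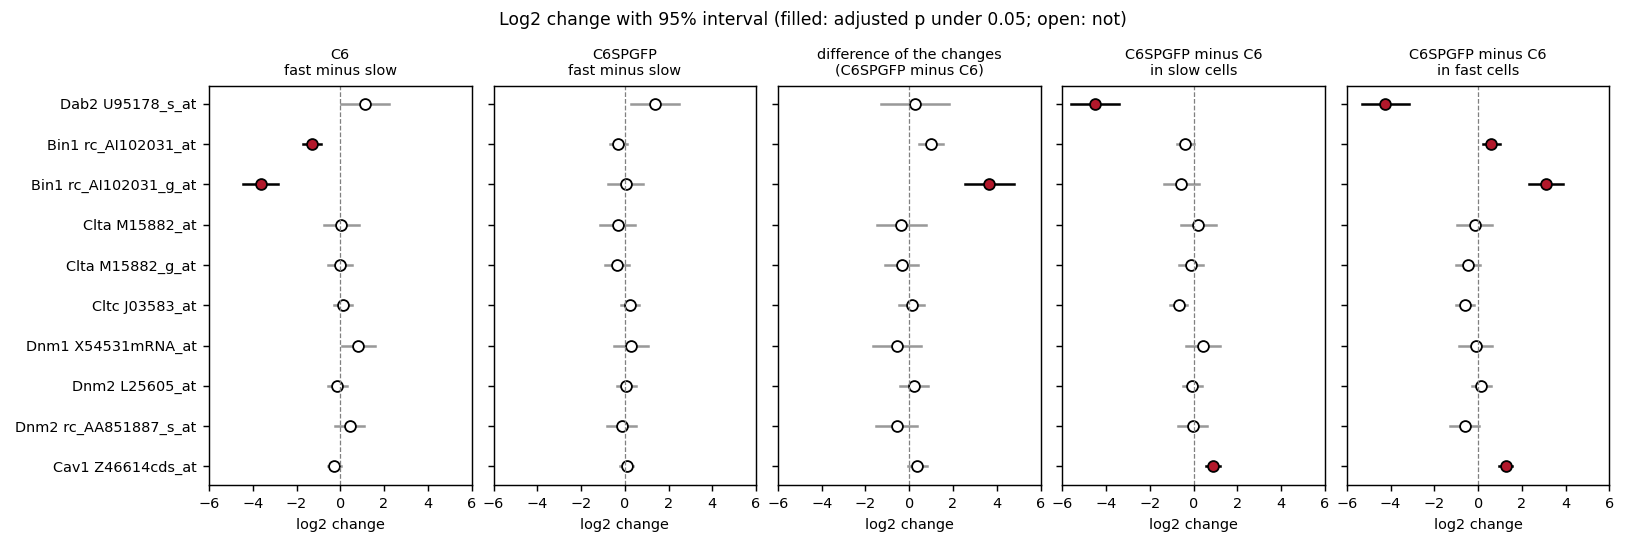
Log2 change of signal plus 8 (horizontal axes) with its 95% interval for each of the 10 probe sets in the 5 comparisons; filled points passed an adjusted p of 0.05 in the limma fit and open points did not. The 9 filled points belong to Dab2, Bin1 and Cav1, at -4.51 and -4.25 for Dab2, from -3.63 to 3.67 for Bin1 and at 0.88 and 1.26 for Cav1.

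Cltc encodes the clathrin heavy chain, 3 of which form the triskelion that builds the coat. Its signals on J03583_at were 448 and 514 in C6SPGFP fast cells and 458 and 359 in C6SPGFP slow cells, against 796 and 658 in C6 fast cells and 716 and 609 in C6 slow cells. All C6SPGFP arrays lay below all C6 arrays, and fast and slow arrays overlapped within each set. The log2 change between the sets was -0.69 ± 0.18 in slow cells (limma adjusted p = 0.0587; 95% interval -1.10 to -0.29) and -0.59 ± 0.18 in fast cells (limma adjusted p = 0.0599; 95% interval -0.99 to -0.18), so neither passed. With the filter at the median signal, which tests fewer probe sets, the change in slow cells passed (limma adjusted p = 0.0486). Between fast and slow cells the change was 0.13 ± 0.18 in C6 (limma adjusted p = 0.777) and 0.24 ± 0.18 in C6SPGFP (limma adjusted p = 0.728).

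Clta encodes clathrin light chain A, which sits on the heavy chain and tunes assembly of the coat. On M15882_g_at the signals were 1251 and 693 in C6SPGFP fast, 1190 and 1217 in C6SPGFP slow, 1414 and 1172 in C6 fast and 1290 and 1321 in C6 slow cells. The single low value was that of C6SPGFP fast replicate 2. Every pair of groups next to each other in the order of means overlapped, though both C6SPGFP slow arrays lay below both C6 slow arrays. Its log2 changes between groups ran from -0.46 to -0.02, with limma adjusted p-values of at least 0.245. Without C6SPGFP fast replicate 1, which leaves the low array alone in its group, the change between the sets in fast cells was -0.92 (limma adjusted p = 0.0157). The other probe set, M15882_at, had signals between 7.56 and 21.4 and changes from -0.32 to 0.21, none of them called.

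Dnm1 encodes dynamin 1, the form known mainly from neurons. On X54531mRNA_at its signals were 127 and 59.2 in C6SPGFP fast, 61.7 and 81.8 in C6SPGFP slow, 90.0 and 101 in C6 fast and 41.2 and 61.5 in C6 slow cells. Both C6 fast arrays were above both C6 slow arrays, with a log2 change of 0.82 ± 0.34 (unadjusted p = 0.0391, limma adjusted p = 0.223; 95% interval 0.05 to 1.60). In C6SPGFP the arrays overlapped (0.27 ± 0.34, limma adjusted p = 0.866), and the changes between the sets were 0.44 ± 0.34 in slow and -0.12 ± 0.34 in fast cells, neither called.

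Dnm2 encodes dynamin 2, the form present in most cell types. On L25605_at its signals were 104.5 and 98.7 in C6SPGFP fast, 92.8 and 99.2 in C6SPGFP slow, 105 and 78.2 in C6 fast and 97.9 and 103 in C6 slow cells. Its log2 changes ran from -0.13 to 0.15, and each had an SE of 0.20, so a change of the size of Cav1 lies outside their 95% intervals, which ran from -0.58 to 0.60 over the 4 comparisons of 2 groups. On rc_AA851887_s_at the signals were 37.3 and 34.0, 39.9 and 41.1, 53.5 and 64.9, and 28.7 and 59.9 in the same order. There the C6 fast arrays were above the C6SPGFP fast arrays, with a log2 change between the sets of -0.62 ± 0.29 (limma adjusted p = 0.206; 95% interval -1.29 to 0.05). This interval holds changes as large as those of Cav1, so the limit from L25605_at does not extend to this probe set.

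Non-overlap of 2 arrays against 2 was common on these arrays and is a weak sign. The groups did not overlap for 5 of the 10 member probe sets between fast and slow C6 cells, where 45.1% of all probe sets did not. It was 4 of 10 between fast and slow C6SPGFP cells (44.1% of all), 7 of 10 between the sets in slow cells (51.4%) and 6 of 10 in fast cells (55.6%).

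Genes with the pattern most like each changed member were found by the root mean square difference over the 8 arrays of log2 values centred on each probe set's own mean. Closest to Dab2 were Fhl2, a LIM-domain protein, at 0.83, the transcription factor Cebpb at 0.997 and the exchange factor Dock8 at 1.05, against a spread of Dab2 itself of 2.32. Fhl2 had mean signals of 4.15 in C6SPGFP fast, 6.11 in C6SPGFP slow, 800.0 in C6 fast and 181 in C6 slow cells. Closest to Bin1 (rc_AI102031_g_at, spread 1.47) were the integrin chain Itga1 at 0.44, Ndrg2 at 0.48 and the protein kinase inhibitor Pkia at 0.49. Itga1 had mean signals of 478, 417, 45.1 and 469 in the same order of groups. Closest to Cav1 (spread 0.55) were Papss1, which makes the sulphate donor of the cell, at 0.13, the lactate dehydrogenase chain Ldhb at 0.13 and Ppdpf at 0.14. Papss1 had mean signals of 2137, 1982, 928 and 1250. These genes were picked out of all named probe sets for their likeness, so the likeness itself is no test.

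**Figure D3:**
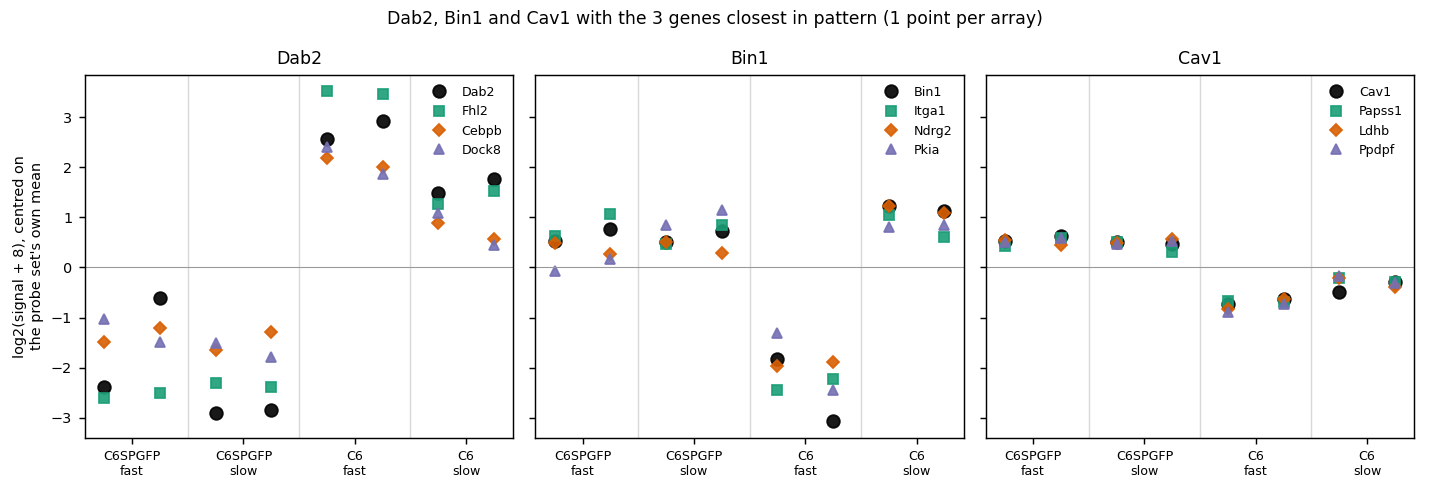
Log2 of signal plus 8, centred on each probe set's own mean over the arrays (vertical axis), on the 8 arrays in 4 groups (horizontal axis, replicate 1 then 2) for Dab2, Bin1 and Cav1 (circles) and the 3 genes closest to each. Dab2 and its neighbours are low on the C6SPGFP arrays and highest on the C6 fast arrays, those of Bin1 are low on the C6 fast arrays, and those of Cav1 differ mainly between the sets.

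Of 120 other genes of endocytosis, in 5 lists, 60 had a probe set and 82 probe sets of 54 genes were tested. The counts of called probe sets were 3 higher and 4 lower between fast and slow C6 cells (8.54% of the 82, against 6.66% of all) and 2 higher and none lower between fast and slow C6SPGFP cells (2.44%, against 1.39%). Between the sets they were 1 higher and 2 lower in slow cells (3.66%, against 6.34%) and 5 higher and 8 lower in fast cells (15.9%, against 15.6%). On the difference of the changes 3 were called (3.66%, against 3.82%). The medians were 0.04, 0.02, 0.05, -0.07 and -0.06 on the log2 scale, against 0.01, -0.02, 0.01, -0.03 and -0.04 over all probe sets. The 82 probe sets as a pool thus lay near the background. In the list of cargo receptors the shares were higher. Of its 15 probe sets, 33.3% were called between fast and slow C6 cells and 33.3% between the fast cells of the sets. The share was 13.3% between fast and slow C6SPGFP cells, between the slow cells and on the difference. With 15 probe sets these shares rest on few calls, and on fewer genes. All calls of this list within C6SPGFP and on the difference were of Asgr1. Its probe set K02817cds_s_at passed the filter only through C6SPGFP fast cells, so these shares are no support. Between the fast cells of the sets, both probe sets of Asgr1 and both of Sort1 were among the calls.

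Among 22 probe sets of adaptors and accessory proteins, Sh3kbp1 and Arrb1 were the calls between fast and slow C6 cells. That is 9.09% of them, against 6.66% of all probe sets. Between the fast cells of the sets 1 was higher and 2 lower in C6SPGFP (13.6%, against 15.6% of all). Sh3kbp1, the adaptor that carries activated growth factor receptors into pits with the ubiquitin ligase Cbl, had signals of 534 and 494 in C6SPGFP fast, 449 and 516 in C6SPGFP slow, 125 and 101 in C6 fast and 296 and 288 in C6 slow cells. As with Bin1, the C6 fast arrays were the lowest. It fell in fast C6 cells (log2 change -1.31 ± 0.17, limma adjusted p = 0.0018) and the sets differed in this change by 1.41 ± 0.23 (limma adjusted p = 0.0130). It was higher in C6SPGFP than in C6, by 2.11 ± 0.17 in fast cells (limma adjusted p = 8.21e-05) and by 0.70 ± 0.17 in slow cells (limma adjusted p = 0.0434), the last a call lost in most alternatives. Arrb1, beta-arrestin 1, which takes G-protein-coupled receptors to clathrin, had signals of 33.3 and 27.1, 19.5 and 23.8, 92.6 and 148, and 31.5 and 39.6 in the same order. It rose in fast C6 cells (1.53 ± 0.26, limma adjusted p = 0.00938) and was lower in C6SPGFP than in C6 fast cells (-1.72 ± 0.26, limma adjusted p = 0.00287). Leaving out replicate 1 of C6 slow (1.398, limma adjusted p = 0.0631) or replicate 2 of C6 fast (1.22, limma adjusted p = 0.0593) ended the first call. The Sh3kbp1 difference lost its call without C6SPGFP slow replicate 1 or either C6SPGFP fast array (1.31 to 1.46, limma adjusted p from 0.0543 to 0.074).

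Ap2a2, an alpha subunit of the AP-2 complex that joins cargo to clathrin, had signals of 61.4 and 67.6 in C6SPGFP fast cells, against 181 and 157 in C6 fast cells. It was lower there, with a log2 change of -1.28 ± 0.19 (limma adjusted p = 0.00223). None of 10 probe sets of coat and fission partners was called in any comparison, including those of the other light chain Cltb. Of 8 probe sets for caveolae and flotillin genes, 1 was called, Cavin3, a coat protein of caveolae, on D85435_at between the fast cells of the sets (-0.66 ± 0.17, limma adjusted p = 0.0315), a call that ended without any of the 4 fast arrays (-0.82 to -0.52, limma adjusted p from 0.0515 to 0.195). Its other probe set gave -0.14 ± 0.16 (limma adjusted p = 0.642), and neither changed between the slow cells beyond the threshold. Cavin3 thus had no call in the direction of Cav1. As a share, 1 call among the 8 probe sets of this list lay below the 15.6% of all probe sets called between the fast cells. With 8 probe sets that share rests on a single call.

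Of 27 probe sets of endosomal sorting genes, 4 were called, all lower in C6SPGFP than in C6 fast cells, which is 14.8% of them, near the 15.6% of all probe sets called there. They were both probe sets of Napa, the alpha-SNAP that recycles SNARE complexes (-1.09 ± 0.17 and -0.76 ± 0.18, limma adjusted p = 0.00365 and 0.0242), and both of the ATPase Vcp (-0.57 ± 0.11 and -0.50 ± 0.12, limma adjusted p = 0.0117 and 0.0282). Of these calls, the second of Napa ended without any of the 4 fast arrays (-0.84 to -0.69, limma adjusted p from 0.0686 to 0.126). The first of Vcp ended without C6SPGFP fast replicate 2 or C6 fast replicate 1 (limma adjusted p = 0.0872 and 0.0668), and the second without any of the 4 fast or either C6SPGFP slow array (-0.56 to -0.42, limma adjusted p from 0.0534 to 0.128). Among 15 probe sets of cargo receptors, Igf2r, which takes lysosomal enzymes and insulin-like growth factor 2 into the cell, had signals of 290.5 and 273 in C6SPGFP fast, 199 and 186 in C6SPGFP slow, 598 and 678 in C6 fast and 349 and 361 in C6 slow cells. As with Dab2, the C6SPGFP arrays were below the C6 arrays. It was lower in C6SPGFP in fast (-1.15 ± 0.15, limma adjusted p = 0.00122) and slow cells (-0.86 ± 0.15, limma adjusted p = 0.0123), and rose in fast C6 cells (0.83 ± 0.15, limma adjusted p = 0.0112). The call in slow cells ended without either C6SPGFP slow array (-0.91 and -0.81, limma adjusted p = 0.0677 and 0.109), and that within C6 without replicate 1 of C6 slow or replicate 2 of C6 fast (0.79 and 0.74, limma adjusted p = 0.0546 and 0.0691).

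Asgr1, the asialoglycoprotein receptor known from hepatocytes, was called higher in fast than in slow C6SPGFP cells. On M21770_at its signals were 65.3 and 94.6 in C6SPGFP fast and 20.7 and 17.6 in C6SPGFP slow cells, a log2 change of 1.68 ± 0.25 (limma adjusted p = 0.0147), and 10.7 and 10.3 in C6 fast against 37.2 and 27.6 in C6 slow cells, a change of -1.12 ± 0.25 (limma adjusted p = 0.0317). On K02817cds_s_at they were 40.6 and 37.4 in C6SPGFP fast and 1.86 and 2.5 in C6SPGFP slow cells (2.21 ± 0.28, limma adjusted p = 0.00726). In C6 fast cells they were 1.69 and 1.83 and in C6 slow cells 7.54 and 2.29, with no call (-0.37 ± 0.28, limma adjusted p = 0.546). K02817cds_s_at passed the filter on low signals only through C6SPGFP fast cells, where it was high, so its values are no separate support for those of M21770_at. Both calls within C6SPGFP ended without C6SPGFP slow replicate 2 or C6SPGFP fast replicate 2, and that on M21770_at also without C6SPGFP slow replicate 1 (limma adjusted p from 0.063 to 0.156 over both probe sets). The fall within C6 ended without C6 slow replicate 1, either C6 fast array or either C6SPGFP slow array (-1.16 to -0.96, limma adjusted p from 0.0569 to 0.152). Sort1, sortilin, fell in fast C6 cells on both probe sets (-1.30 ± 0.30 and -0.91 ± 0.22, limma adjusted p = 0.0372 and 0.0454) and was higher in C6SPGFP than in C6 fast cells (1.41 ± 0.30 and 0.79 ± 0.22, limma adjusted p = 0.0146 and 0.0432). The first of these calls between the sets ended without C6SPGFP fast replicate 1 or C6 fast replicate 1 (1.07 and 1.24, limma adjusted p = 0.0976 and 0.0857), and the second without any single array (0.62 to 0.98, limma adjusted p from 0.0514 to 0.224). Vldlr, a lipoprotein receptor that Dab2 is known to bind, rose in fast C6 cells (0.95 ± 0.23, limma adjusted p = 0.0477). The transferrin receptor Tfrc, the classic cargo of clathrin pits, was lower in C6SPGFP than in C6 slow cells (-1.499 ± 0.34, limma adjusted p = 0.0371). Over the 5 comparisons the wider lists gave 28 calls, of which 18 were lost in at least 1 alternative other than the deposited scaling, among them all those of Sort1, Vldlr, Tfrc, Cavin3 and Vcp.

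**Figure D4:**
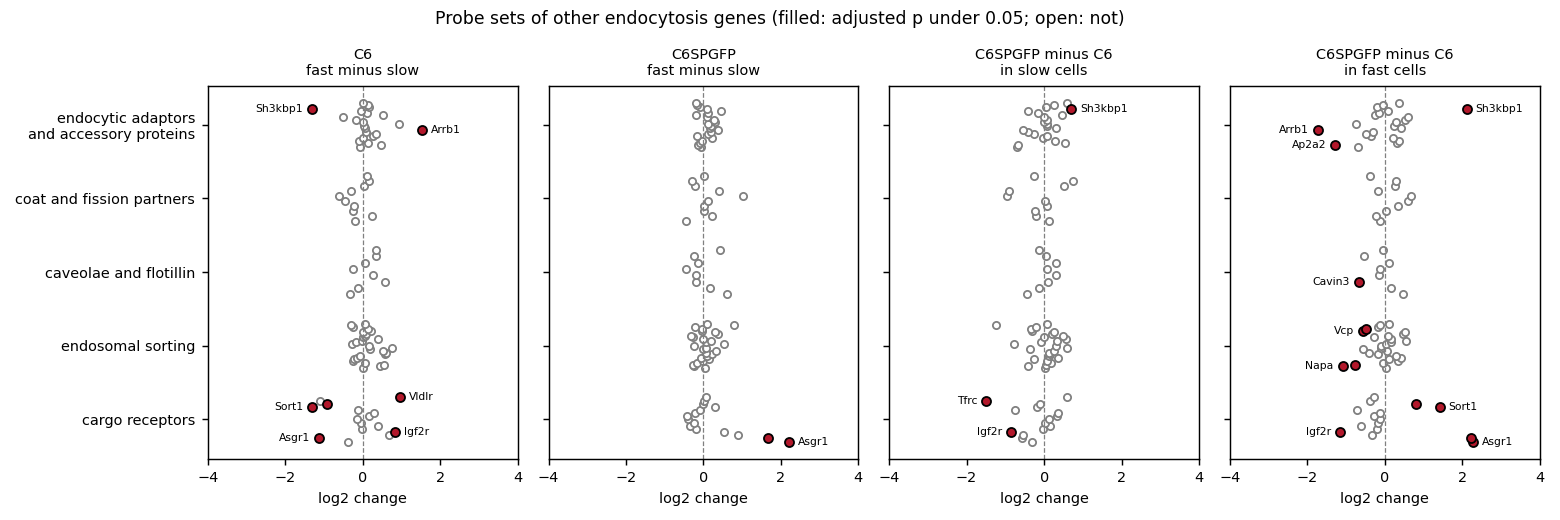
Log2 change (horizontal axes) of 82 probe sets of other endocytosis genes in 5 lists (rows) in 4 comparisons; filled points passed an adjusted p of 0.05 and carry the gene's name once, open points did not. Calls are spread over both directions, with Sh3kbp1 at -1.31 and Arrb1 at 1.53 between fast and slow C6 cells and 13 of the 82 called between the fast cells of the sets.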

How the data were processed

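RNA of 8 samples was measured on expression arrays, 1 per sample. The deposited values are linear probe set intensities; no label or header names the software, background correction or scaling that the authors used. Signals were quantile normalised, log2 of signal plus 8 was taken, and 6684 probe sets with a mean of at least 8 were tested, leaving out 59 controls and 2056 dimmer ones. A model of 4 group means was fitted with limma 3.58.1 in R 4.3.3 (lmFit, eBayes with a trend; 4 residual and 4.49 prior degrees of freedom), two-sided, with Benjamini-Hochberg adjustment at 0.05; changes are of signal plus 8, which understates those of dim probe sets. The fit was also run on simulated data with independent normal noise. Such data hold neither the deposited scale of C6SPGFP fast replicate 1 nor effects that replicates share, so they do not bear on those limits. Gene names come from the platform's table (7018 probe sets with 1 symbol, 308 with several, 1473 with none), 6994 of them updated through Entrez identifiers.

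Named were all member probe sets, each listed endocytosis gene with a call, the 3 nearest genes of each called member, Vim and S100b. The members, lists and normalisation were chosen with earlier results of these data known. Alternatives were scaling, pseudocount, filter, moderation, samples fitted, replicate block and leaving out each array; those for the wider lists were chosen after seeing the data. Figures were drawn with matplotlib 3.10.9.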

Additional observations from a re-analysis of the deposited data

Results flagged for a closer look

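The fast minus slow change differed between C6SPGFP and C6 for 4 of the probe sets described, by the limma test of that difference. These were 1 of the 10 member probe sets and 3 of the 82 of the wider lists (3.66%), where 3.82% of all probe sets were called. For Bin1 rc_AI102031_g_at the difference was 3.67 on the log2 scale (adjusted p = 0.00488), with no change in C6SPGFP past the threshold and a fall in C6. For Asgr1 it was 2.58 on K02817cds_s_at (adjusted p = 0.00936) and 2.80 on M21770_at (adjusted p = 0.00316). K02817cds_s_at passed the filter on low signals only through C6SPGFP fast cells, the group that sets its difference, so it adds no support to the value of M21770_at. For Sh3kbp1 rc_AA875172_at it was 1.41 (adjusted p = 0.0130), a call lost without C6SPGFP slow replicate 1 or either C6SPGFP fast array. No group was large enough for a search for single outlying arrays.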

How the results depend on the processing

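Of the 9 member calls, 7 held in every alternative other than the deposited scaling. The exceptions were Cav1 between the slow cells and Bin1 rc_AI102031_at between the fast cells. Over 835 recomputed member values, 810 stayed on the same side of the threshold, 19 lost and 6 gained a call, and no called value changed sign, while 45 uncalled ones did. Under the deposited scaling, which leaves C6SPGFP fast replicate 1 at its own scale and so moves the median of all probe sets to 1.04, 1.08 and 1.11 in the comparisons with that group, 0 member probe sets were called between fast and slow C6 cells, 0 on the difference, 1 between the slow cells and 2 between the fast cells. There Dab2 was called in both comparisons between the sets. Over all probe sets that scaling called 20, 15, 24, 2 and 182 instead of 445, 93, 255, 424 and 1042 (C6, C6SPGFP, difference, slow cells, fast cells), and the share of calls that were higher was 100% in C6SPGFP, 95.8% on the difference and 94% in fast cells, against 76.3%, 71% and 53.2%. The values that changed sign there, each called lower between the fast cells before, were Cavin3 D85435_at (0.487), Vcp (0.607 and 0.474), Igf2r (0.00484) and Napa (0.136 and 0.383). Leaving out each array in turn gave 2 to 3 member calls in C6, 0 to 1 in C6SPGFP, 1 on the difference, 1 to 2 in slow cells and 3 to 4 in fast cells. The counts over all probe sets were then 279 to 446, 21 to 107, 123 to 273, 95 to 421 and 509 to 1127. Fitting only the groups compared called 230 over all probe sets in C6 and 270 in slow cells. Counts over the wider lists of 7, 2, 3, 3 and 13 became 1 to 5, 0 to 2, 1 to 4, 0 to 3 and 7 to 13 without an array. With the replicate number as a replicate block, member counts were 2, 0, 1, 2 and 4, as without it. The replicate numbers pair no samples by the labels, and the differences between replicates correlated between groups by -0.13 to 0.27 across probe sets.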
